A study of Phaseolus vulgaris with 18 samples.

Results

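Pods of the common bean, Phaseolus vulgaris, sampled at 15 DAF were compared with pods sampled at 10 DAF, DAF being taken here to mean days after flowering, which no label writes out. All plants were of the line that the labels call 4004, and no treatment or genotype differed between the groups. The comparison covered 17336 of the 27420 genes in the deposited RNA-seq table, those with at least 1 TPM (transcripts per 1000000) in 3 or more of the 6 libraries. Each group held 3 libraries, and 3 pod libraries at 20 DAF and 6 grain libraries at 10 and 15 DAF were used beside them. Whether libraries of 1 group stem from different plants is not stated in the labels; p-values then reflect the spread among these samples alone, and that spread may be technical.

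The bean pod is a fruit wall that first grows in length and then matures around the filling seeds. Young pod walls are green, divide and expand, and depend on proteins that loosen the primary cell wall. Later, fibres and vessels of the sutures and the inner pod wall lay down secondary walls of cellulose, xylan and lignin, which decide whether a pod stays tender or becomes tough and opens when dry. In legumes the pod wall also holds nitrogen and carbon for a time before passing them on to the seeds.

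The libraries differed in their column sums and in how alike they were. The deposited columns of the 6 libraries summed to between 895916 and 993461 TPM, except that of 15 DAF replicate 3, which summed to 436072 TPM, so columns were divided by median-ratio factors (0.546 to 1.27 over the 9 pod libraries) and values are scaled TPM throughout. The 10 DAF pod columns are numbered 1, 2 and 3 in the table and the sample titles 3, 4 and 5, so the columns could not be matched to single samples, and they are called c1, c2 and c3 in column order. Across the genes tested, libraries correlated at r = 0.91 to 0.937 within 10 DAF, 0.956 to 0.963 within 15 DAF and 0.843 to 0.921 between the stages. Library c2 lay between the stages: on the first principal component, with 45.1% of the variance, it was at -33.0, against -98.4 and -77.6 for c1 and c3 and 4.29 to 24.3 at 15 DAF. Among the called genes, c2 was the 10 DAF library closest to the 15 DAF mean in 430, c3 in 152 and c1 in 86.

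Genes that mark seed tissue were lower in the pod libraries than in grain, by summed level. The 8 seed storage cupins, the legumin- and vicilin-type reserve proteins of the seed, summed to 29.4, 13.3 and 78.1 scaled TPM in c1, c2 and c3 and to 12.3, 30.8 and 133 in 15 DAF replicates 1, 2 and 3. On a scaling shared with grain they summed to 10.4 to 111 in the same pod libraries, to 126, 1040.3 and 1821 in grain at 10 DAF and to between 131260 and 215040 in grain at 15 DAF. Library c3 and 15 DAF replicate 3 were the highest pod libraries of their stages, and the groups overlapped. The 8 seed maturation regulators summed to at most 2.74 in a pod library against 908 to 1605 in grain, and none passed the filter. ABI5 (Phvul.007G229600), counted with the abscisic acid genes, was called lower. Of 29 late embryogenesis abundant genes, 12 were at 0 in all 6 libraries, and 10 were tested with no call by limma (0 at an unadjusted p under 0.05). On the shared scaling they summed to 198 to 339 in pods and 476 to 749 in grain at 10 DAF. Oleosins summed to 45.8, 22.1 and 50.9 scaled TPM in c1, c2 and c3. At 15 DAF they were at 14.6, 11.5 and 17.2, without overlap, and 1 of 2 tested was called lower. Of the 61 heat shock genes tested, none was called (12 at an unadjusted p under 0.05) and their median log2 difference was 0.03. By limma, 3944 of all 17336 genes tested had an unadjusted p under 0.05. Such counts for single lists, here and below, are to be read against that share. The labels do not say which parts of the pod were taken. In bulk RNA such as this, fewer cells of a type and less RNA per cell cannot be told apart in any result below.

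Between 10 and 15 DAF, 668 genes were called in pods, which is 3.85% of those tested, with 299 higher (1.72%) and 369 lower (2.13%) at 15 DAF. Calls required limma's adjusted p (Benjamini-Hochberg) to be under 0.05 and a difference of at least 1 on the log2(scaled TPM + 1) scale, on which the change of low genes is understated. The median difference over all genes was -0.03. Genes that rose went from a median of 5.24 to 21.7 scaled TPM, and genes that fell from 20.3 to 3.28. Falls were the larger: 65 of the 369 genes that fell did so by at least 3 on the log2 scale, against 17 of the 299 that rose. All 668 genes had groups that did not overlap, as did 30.6% of all genes tested. Of the called genes, 94 have no description in the table, 47 each way.

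**Figure D1:**
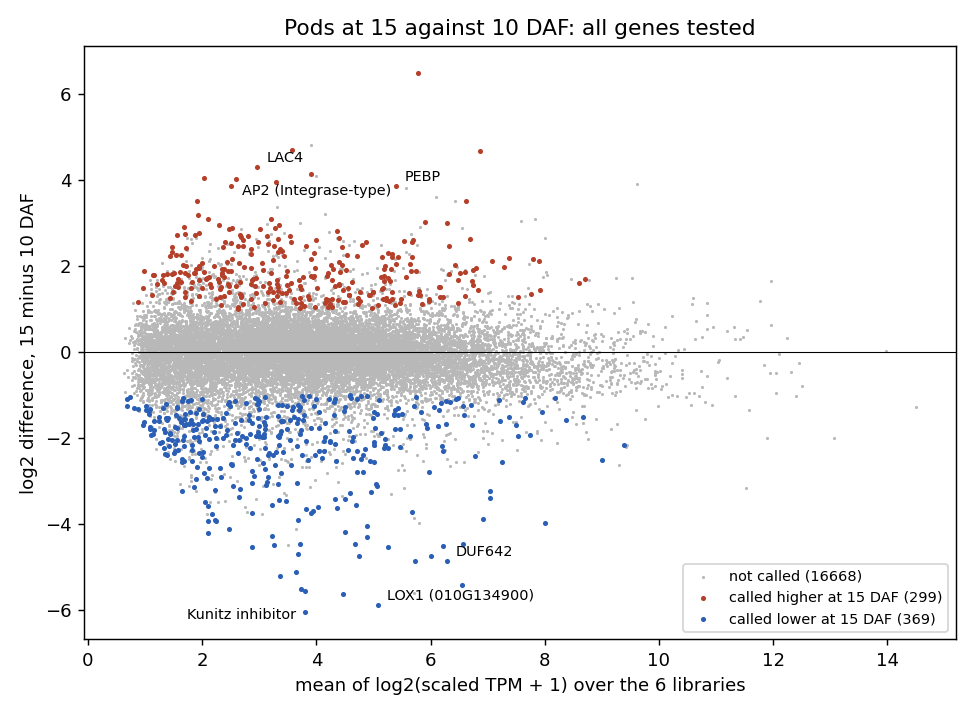
Log2 difference between pods at 15 and 10 DAF (vertical axis, 15 minus 10 DAF) against the mean of log2(scaled TPM + 1) over the 6 libraries (horizontal axis), 1 point for each of 17336 genes. Red points mark the 299 genes called higher and blue points the 369 called lower; the labelled genes are described in the text.

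The split between higher and lower calls moved with the scaling. Of the called genes 44.8% were higher, against 21.8% on the values as deposited (171 higher and 612 lower) and 67.1% with every column rescaled to 1000000 TPM (578 and 284), settings under which the median of all genes was -0.18 and 0.20. The number of calls also turned on single libraries: it was 93 without c1, 1615 without c2, 127 without c3, and 15, 16 and 217 without 15 DAF replicates 1, 2 and 3. Leaving out a library lowers the number of samples as well as removing its values.

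A core of 12 genes, 6 higher and 6 lower at 15 DAF, stayed called under all 18 other settings, including each library left out. Dropping the minimum difference, or raising the limit of the adjusted p to 0.1, only loosens the call, so those settings could lose no gene. The 12 genes were picked out after their values were seen. Among the 6 that rose, the laccase LAC4 (Phvul.008G107100), whose Arabidopsis relative joins monolignols into lignin, was at 0.0476, 2.38 and 0.536 scaled TPM in c1, c2 and c3 and at 41.6, 29.9 and 30.8 in 15 DAF replicates 1, 2 and 3. It rose by 4.30 ± 0.40 (SE; adjusted p = 0.00467) on the log2 scale, and every 15 DAF library was far above every 10 DAF library. A PEBP-family gene (Phvul.004G119700), of the family of flowering regulators that includes FT and TFL1, was at 10.2, 7.76 and 12.6 and then at 158, 237 and 105, a rise of 3.85 ± 0.35 (SE; adjusted p = 0.00467). A gene with an AP2-type DNA-binding domain (Phvul.002G281300, described as integrase-type) was at 0.349, 0.892 and 0.314 at 10 DAF and at 23.6, 38.0 and 14.2 at 15 DAF. Its groups were far apart, with every 10 DAF library under 1 scaled TPM (4.03 ± 0.36 (SE; adjusted p = 0.00467)). The largest difference of all 17336 genes belonged to a gene with no description, Phvul.007G255700, at 4.59, 5.87 and 4.14 and then at 403, 859.7 and 413 (6.49 ± 0.37 (SE; adjusted p = 0.000263)). A PhzC/PhzF-type gene (Phvul.007G170400, 2.20) and the undescribed Phvul.003G053502 (3.51) completed the 6.

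The 6 core genes that fell were led by the lipoxygenase LOX1 (Phvul.010G134900), an enzyme that adds oxygen to polyunsaturated fatty acids as the first step towards oxylipins. It was at 417, 94.6 and 433 scaled TPM in c1, c2 and c3 and at 3.67, 3.96 and 2.64 at 15 DAF, a log2 difference of -5.88 ± 0.56 (SE; adjusted p = 0.00467). Library c2 was the lowest at 10 DAF, yet far above every 15 DAF library. A DUF642 gene (Phvul.001G053100), of a plant family of cell wall proteins, was at 437, 496 and 342 and then at 7.04, 13.1 and 25.4, and here c2 was the highest library (-4.87 ± 0.47 (SE; adjusted p = 0.00467)). A dirigent-like gene (Phvul.005G032600), of the family that steers the coupling of phenoxy radicals, was at 43.0, 9.14 and 13.1 at 10 DAF and listed at 0 in all 3 libraries at 15 DAF and all 3 at 20 DAF (adjusted p = 0.0076). The other core genes that fell were a putative cell wall protein precursor (Phvul.005G106200, -3.46), the mevalonate pathway enzyme HMGR1 (Phvul.L004337, -2.88) and the undescribed Phvul.011G114200 (-2.33). The highest adjusted p of these 12 genes with any 1 library left out was 0.0494.

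Besides LAC4, the PEBP gene and the AP2-type gene, the 12 largest rises among described genes with at least 20 scaled TPM took in membrane, wall and hormone genes. DMP2 (Phvul.006G158800), a membrane protein of the DUF679 family, was at 5.05, 0.248 and 0.7 at 10 DAF and at 192, 55.3 and 19.6 at 15 DAF, and GA2OX1 (Phvul.005G061000), which inactivates gibberellins, at 0.86, 1.43 and 9.26 and 52.3, 85.3 and 54.1. They rose by 4.70 ± 0.93 (SE; adjusted p = 0.0328) and 4.14 ± 0.59 (SE; adjusted p = 0.0127). The fasciclin-like arabinogalactan protein FLA11 (Phvul.006G172100), associated with secondary walls in Arabidopsis stems, was at 1.74, 0.217 and 0 and 18.6, 19.9 and 23.5, a rise of 3.85 ± 0.62 (SE; adjusted p = 0.019) with little spread at 15 DAF. A ribonuclease T2 gene (Phvul.002G084500) rose by 3.94, the homeobox gene HB40 (Phvul.002G027200) by 3.09, and the cytochrome P450 gene CYP93D1 (Phvul.007G257500) by 3.01. Among the more abundant genes, CPuORF10 (Phvul.008G022200), an upstream reading frame, rose from 19.3, 45.0 and 25.2 to 412, 357 and 247, and an aluminium-induced protein gene (Phvul.006G186600) from 10.9, 23.3 and 31.2 to 188, 244 and 109. The gene described as mitochondrial F0-ATPase subunit 9 (Phvul.005G088454) was at 14.8, 58.0 and 12.4 and 107, 612 and 3141. Its 15 DAF libraries differed more than its groups did, with replicate 3, the library with the low column sum, far above the others (4.68 ± 1.05 (SE; adjusted p = 0.0442)). Of the 12 rises, 3 stayed called without 15 DAF replicate 1 (adjusted p of the others 0.054 to 0.109) and 3 without replicate 2 (0.0622 to 0.147). Without c1, c3 or 15 DAF replicate 3, 7, 7 and 9 stayed called (highest adjusted p 0.136, 0.133 and 0.0858).

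The 12 largest falls by the same rule were led by a protease inhibitor, antenna proteins and a lectin kinase. A Kunitz trypsin inhibitor gene (Phvul.004G129600), of a family that blocks digestive proteases, was at 413, 25.1 and 137 scaled TPM at 10 DAF and at 1.19, 0.676 and 0.392 at 15 DAF. Its log2 difference of -6.05 ± 0.93 (SE; adjusted p = 0.0168) was the largest of the 369 genes that fell. LHCB1.4 (Phvul.004G091988), an antenna protein of photosystem II, went from 139.5, 23.4 and 256 to 0.426, 0.935 and 2.11, and a lectin-domain kinase gene (Phvul.007G239800) from 211, 31.1 and 105 to 0.0419, 3.78 and 0.5. They fell by 5.55 and 5.52 on the log2 scale, and in both c2 was the lowest 10 DAF library. AGP18 (Phvul.002G014100), an arabinogalactan protein of the cell surface, was at 813, 52.9 and 535 and then 9.97, 5.48 and 12.7 (-4.85 ± 0.99 (SE; adjusted p = 0.0349)). An aspartyl protease gene (Phvul.008G180500) was at 181, 33.2 and 5.93 and 0.129, 1.36 and 0.306 (-4.53), with c3 rather than c2 lowest. The rest were a second LOX1 gene (Phvul.005G156800, -4.74), the antenna gene LHCB1.3 (Phvul.004G092376, -5.11), and 3 genes of the lipid-transfer and 2S albumin superfamily (Phvul.008G113900, -5.21; Phvul.003G169100, -4.75; Phvul.001G050300, -4.52). LOX1 Phvul.010G134900 and the DUF642 gene, described above, completed the 12. Of these falls, 2 and 3 stayed called without 15 DAF replicates 1 and 2 (adjusted p of the others 0.0617 to 0.132 and 0.0584 to 0.134), and 6, 5 and 7 without c1, c3 and 15 DAF replicate 3 (highest 0.108, 0.107 and 0.0939).

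**Figure D2:**
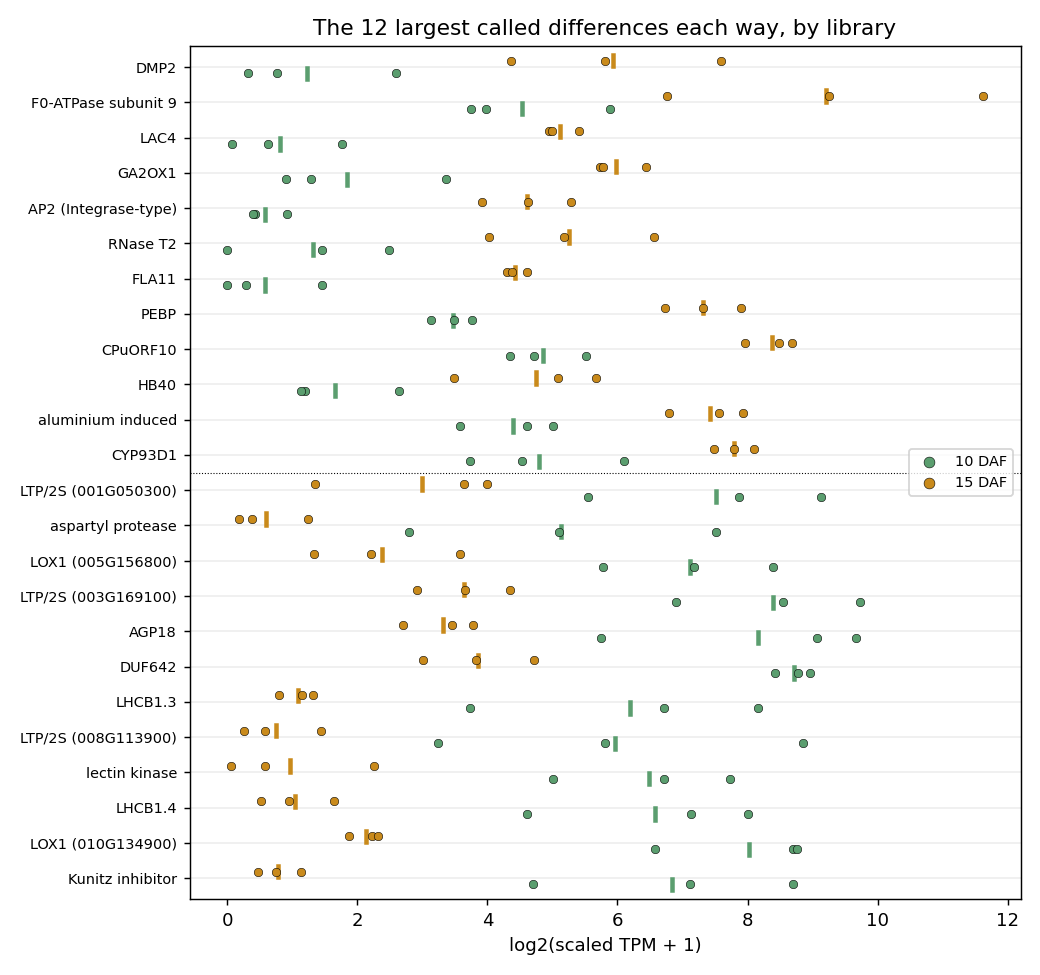
The 12 largest called rises (above the dotted line) and falls (below it) among described genes with at least 20 scaled TPM in the higher group, as log2(scaled TPM + 1). Each point is 1 library, green at 10 DAF and orange at 15 DAF, and the short bars are means of 3; the groups do not overlap in any row, and the F0-ATPase subunit 9 gene had the widest spread at 15 DAF.

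A few genes that loosen the primary wall were called lower at 15 DAF, and most were not called. Expansins, which let wall polymers slip without cutting them, had a median log2 difference of -1.87 over 15 genes tested, against -0.03 for all genes. All 15 differences were below 0, and 2 were called (13.3%, against 2.13% of all genes called lower). Summed over the list, expansins were at 2984, 1633 and 1696 scaled TPM in c1, c2 and c3 and at 321, 624 and 623 at 15 DAF, with every 10 DAF library above every 15 DAF library. EXPA1 (Phvul.008G037500) fell from 669, 138 and 484 to 6.67, 14.7 and 30.1 (-4.52 ± 0.75 (SE; adjusted p = 0.0206)). EXPA4 (Phvul.011G063800) fell from 167, 36.7 and 57.9 to 12.1, 0.88 and 7.01 (-3.63 ± 0.79 (SE; adjusted p = 0.0405)). The most abundant, EXPA8 (Phvul.009G142800) and EXPA15 (Phvul.002G083600), were not called: EXPA8 was at 616, 785 and 491 and 101, 129 and 224, without overlap (-2.11 ± 0.59 (SE; adjusted p = 0.0774)), and EXPA15 overlapped between the stages (-1.05 ± 0.63 (SE; adjusted p = 0.35)). With c2 left out 8 of the 15 expansins were called lower, as were 8 on the values as deposited, whereas 0 were without c1, c3 or 15 DAF replicate 1 or 2 and 1 without replicate 3.

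Pectin genes were called lower more often than higher, and xyloglucan genes had no call. Of 34 pectin and pectate lyases, which cut pectin, 5 were lower and 1 higher (median -0.49). These were 14.7% and 2.94%, against 2.13% and 1.72% of all genes. A pectate lyase gene (Phvul.001G256900) fell from 55.2, 15.3 and 22.3 to 3.05, 3.49 and 2.33 (-2.82 ± 0.60 (SE; adjusted p = 0.0386)), and a pectin lyase-like gene (Phvul.009G225400) rose from 4.87, 12.2 and 9.72 to 49.6, 57.1 and 44.7 (2.44 ± 0.38 (SE; adjusted p = 0.0168)). Neither was the most abundant member: that was the pectate lyase gene Phvul.003G207400, whose stages overlapped (-0.58 ± 0.78 (SE; adjusted p = 0.698)). Of 24 pectin methylesterases and their inhibitors, which set how stiff pectin is, 3 were lower (12.5%) and 0 higher (median -0.94). The 3 are described as invertase or pectin methylesterase inhibitors. Phvul.009G053000 went from 46.6, 3.26 and 22.7 to 0, 0.0363 and 0.291, Phvul.009G224200 from 64.2, 8.02 and 31.7 to 0.658, 0.811 and 1.64 and Phvul.006G088000 from 61.9, 3.73 and 22.3 to 0.733, 1.35 and 1.24. All 3 were under 2 scaled TPM in every 15 DAF library, with c2 lowest at 10 DAF. Among 21 xyloglucan endotransglucosylases, which cut and rejoin xyloglucan, none passed the limma test at an adjusted p under 0.05. At an unadjusted p under 0.05 there were 6, against 3944 of all 17336 genes. Without overlap between the stages, 5 of the 21 were lower and 3 higher, where 16.3% and 14.3% of all genes were. The most abundant, XTH6 (Phvul.003G231900), was at 658, 131 and 749 and 30.4, 92.5 and 197 (-2.27 ± 0.79 (SE; adjusted p = 0.133)). Of the 7 called expansin and pectin genes named above, inhibitors included, none stayed called without c3 or without 15 DAF replicate 1 or 2 (highest adjusted p 0.134, 0.152 and 0.146), 1 without c1 and 3 without 15 DAF replicate 3 (highest 0.125 and 0.109).

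The calls among genes of secondary wall cellulose and xylan were all higher at 15 DAF, though not under every setting. Of 17 such genes, 6 were called higher and 0 lower, or 35.3% against 1.72% of all genes, with a median of 0.61. Of the 17 differences 12 were above 0 and 5 below, and 2 genes were lower without overlap. On the values as deposited, and with all 18 libraries fitted, 5 were called higher and 1 lower. Without 15 DAF replicate 1 or 2, 0 were called, and 1 was without c1 or c3. The summed level of the list was 239, 322 and 342 scaled TPM in c1, c2 and c3 and 705, 701 and 550.3 at 15 DAF, without overlap. CESA7 (Phvul.003G154600) and CESA8 (Phvul.009G090100), which in Arabidopsis form the secondary wall cellulose synthase with CESA4, rose by 2.65 ± 0.49 (SE; adjusted p = 0.027) and 1.76 ± 0.31 (SE; adjusted p = 0.0249). CESA7 was at 4.23, 12.4 and 7.66 and then 68.3, 56.6 and 36.2, and CESA8 at 12.4, 27.2 and 19.6 and then 77.1, 70.5 and 53.1. Library c2 was the highest 10 DAF library for both. CESA4 (Phvul.009G242700) was at 10.4, 50.3 and 42.4 and 109.9, 129 and 82.6, also without overlap, and missed the threshold (1.86 ± 0.53 (SE; adjusted p = 0.0785)). COBL4 (Phvul.008G029000), needed for secondary wall cellulose in Arabidopsis, rose from 15.2, 35.0 and 21.6 to 113, 126 and 91.3. For xylan, GUX1 (Phvul.009G148800), which adds glucuronic acid side chains, rose from 0.77, 2.15 and 0.562 to 15.0, 16.8 and 10.9, and the IRX8-type genes GAUT12 (Phvul.005G091200 and Phvul.011G141200) by 2.02 and 2.75. The primary wall subunit CESA6 (Phvul.004G093300) fell from 85.9, 50.4 and 69.9 to 23.0, 21.7 and 27.7 (-1.44 ± 0.24 (SE; adjusted p = 0.0213)), while its partner CESA1 (Phvul.009G094200) overlapped between the stages (-0.21 ± 0.26 (SE; adjusted p = 0.669)). Of the 25 other cellulose synthase and synthase-like genes, 3 were higher (12%) and 2 lower (8%). The largest rise was of a CSLB-type gene (Phvul.011G101500), from 46.4, 106 and 95.7 to 387, 286 and 271.

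Of 11 secondary wall regulators tested, 3 were higher (27.3%, against 1.72% of all genes) and 0 lower. The median was 1.19, the highest of the lists with 7 or more members tested. MYB26 (Phvul.005G157600), a factor of wall thickening in the Arabidopsis anther given below, was not in this list and was called lower (-1.99). The NAC factor SND2, which in Arabidopsis turns on genes of cellulose and xylan synthesis, rose in 2 of its 3 tested copies: Phvul.005G100100 from 4.71, 8.65 and 3.85 to 37.9, 52.3 and 27.9 (2.60 ± 0.33 (SE; adjusted p = 0.0112)), and Phvul.002G328700 from 24.5, 23.7 and 25.7 to 45.1, 65.6 and 64.6 (1.19 ± 0.21 (SE; adjusted p = 0.0249)). The third copy, Phvul.006G181500, was not called (1.48 ± 0.37 (SE; adjusted p = 0.0562)). MYB52 (Phvul.009G133700), a MYB factor linked with the secondary wall, went from 0, 0.479 and 0.169 to 5.4, 7.32 and 4.12 (2.43 ± 0.27 (SE; adjusted p = 0.00832)). The repressor-like homeobox factor KNAT7 (Phvul.002G153300) was not called (0.30 ± 0.40 (SE; adjusted p = 0.696)).

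Lignin and phenylpropanoid genes split, with 3 higher and 3 lower of 34 (8.82% each way, against 1.72% and 2.13% of all genes). Beside the LAC4 copy in the core, a second LAC4 gene (Phvul.008G226700) rose from 0.84, 4.17 and 3.78 to 23.6, 30.6 and 22.3 (2.88 ± 0.38 (SE; adjusted p = 0.0112)). Other laccases fell from low levels: LAC5 (Phvul.008G220300) was at 7.7, 2.55 and 3.18 and then 0, 0.299 and 0.304, and LAC17 (Phvul.008G100400) at 3.16, 3.01 and 1.29 and then 0.544, 0.118 and 0.397. Of the CCoAOMT1 genes, which methylate lignin precursors, Phvul.003G242451 fell (log2 difference -1.70), and Phvul.003G047900 was at 121, 117 and 78.1 and 552, 596 and 244, without overlap and without a call (2.05 ± 0.62 (SE; adjusted p = 0.0934)). Of 22 fasciclin-like genes, 2 were higher and 2 lower (9.09% each way), and the called ones differed by subtype. Both called FLA11-type genes rose, Phvul.011G077400 from 53.6, 188 and 147 to 452, 527 and 519, and FLA1 (Phvul.006G057400) and FLA2 (Phvul.008G288800) fell, the latter from 729, 117 and 591 to 57.7, 49.9 and 81.3. Of 22 class III peroxidases, which oxidise phenolics in the wall, 1 was higher and 3 lower (4.55% and 13.6%). Phvul.008G249500 rose from 3.37, 25.0 and 9.73 to 56.9, 53.4 and 40.8, and Phvul.002G012300 was among the 3 that fell (-2.50). The most abundant peroxidase, PRXR1 (Phvul.003G078600), was at 6054, 6918 and 5501 and 5395, 5423 and 4659.6 and was not called (-0.25 ± 0.53 (SE; adjusted p = 0.81)). Dirigent-like genes had 3 lower of 17 (17.6%). Beside the core gene, Phvul.005G032500 went from 15.9, 4.26 and 9.02 to 0.0703, 0 and 0, and Phvul.001G145300 fell (log2 difference -1.81). The values of closely related copies can depend on how shared reads were assigned, which is not given in the sources used here.

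The 25 called wall genes named above leaned on single libraries: without 15 DAF replicate 1 or 2, 2 stayed called (adjusted p of the others 0.0529 to 0.153 and 0.05 to 0.155), and without c1, c3 and 15 DAF replicate 3, 9, 10 and 14 did (highest 0.136, 0.134 and 0.119). Under the scalings tried, the medians of expansins and of secondary wall cellulose and xylan were -2.04 to -1.62 and 0.45 to 0.85, while that of dirigent-like genes went from -0.24 to 0.00936 with columns rescaled to 1000000 TPM.

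**Figure D3:**
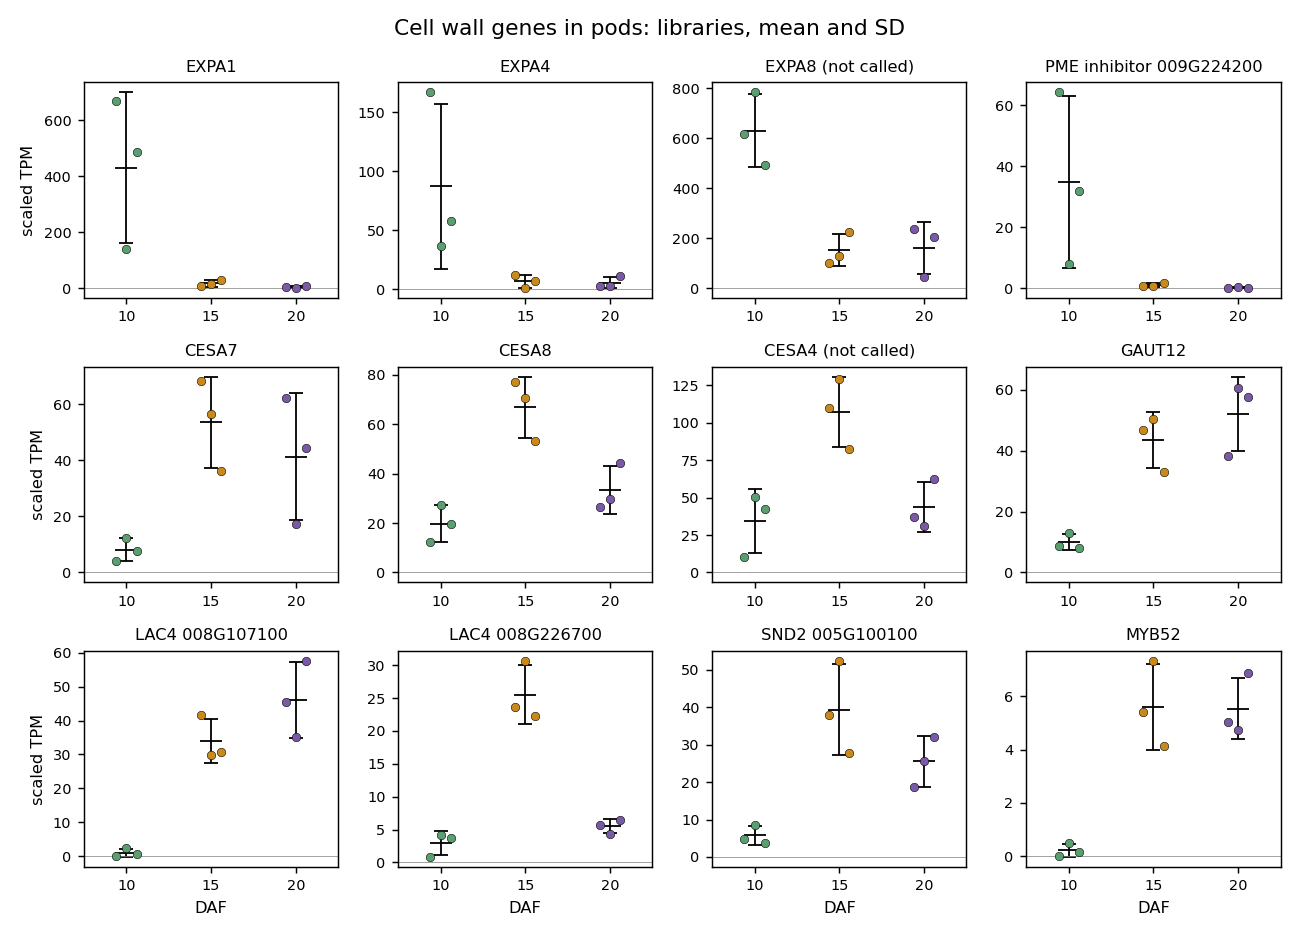
Scaled TPM of 12 cell wall genes in pods at 10, 15 and 20 DAF. Coloured points are the 3 libraries of a stage, from left to right c1, c2 and c3 or replicates 1, 2 and 3, with the mean and SD as bars. From 15 DAF on, EXPA1, EXPA4 and the inhibitor gene are below all of their 10 DAF libraries. CESA7, CESA8, GAUT12, LAC4, SND2 and MYB52 have no overlap between 10 and 15 DAF.

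The calls among core histone genes were all lower at 15 DAF, and few genes of cell division were called. Of 43 core histone genes, which package newly copied DNA, 10 were lower and 0 higher (23.3%, against 2.13% of all genes), with a median of -1.51. Summed, they were at 8812, 7614 and 4716 scaled TPM in c1, c2 and c3 and at 3269.7, 4116 and 3324 at 15 DAF. The stages did not overlap, and c3 was the lowest at 10 DAF. The histone gene Phvul.007G145100 fell from 87.1, 93.5 and 57.5 to 5.68, 34.1 and 9.02 (-2.57 ± 0.56 (SE; adjusted p = 0.0407)), with 15 DAF replicate 2 above the other two. The centromeric variant CENH3 (Phvul.010G112000), which marks where chromosomes attach to the spindle, fell from 12.6, 6.5 and 3.21 to 0.899, 1.17 and 0.678 (-1.98 ± 0.40 (SE; adjusted p = 0.0339)). H4 (HIS4, Phvul.001G169200), H2A 7 (HTA7, Phvul.006G090400) and H2B (HTB9, Phvul.011G066600) fell by 1.31, 2.14 and 1.64 on the log2 scale. The most abundant histone genes were not called: Phvul.001G253700 was at 1826, 1734 and 1229 and 1153, 1122 and 1265, and it and Phvul.001G009100 overlapped between the stages. The count moved widely with the settings, from 2 without the filter on low values to 18 on the values as deposited and 26 with all 18 libraries fitted. With 1 library left out, 0 histone genes were called without c1, 15 DAF replicate 1 or replicate 3, 1 without replicate 2, 2 without c3 and 8 without c2, while the list's median stayed between -1.69 and -1.25 under the scalings tried.

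Of 62 cell cycle and replication genes, 3 were lower and 0 higher (4.84%, against 2.13% of all genes; median -0.51), and all 3 were D-type cyclins, which start the cycle in response to growth signals. CYCD3;2 (Phvul.009G067600) fell from 114, 54.7 and 45.1 to 19.1, 10.7 and 15.1 (-2.10 ± 0.46 (SE; adjusted p = 0.042)). CYCD1;1 (Phvul.003G054801) fell to 2.26, 1.49 and 3.25 scaled TPM, a log2 difference of -2.13 ± 0.32 (SE; adjusted p = 0.0153), and CYCD3;1 (Phvul.001G024900) from 3.94, 5.25 and 2.65 to 0.836, 1.15 and 0.366. The stages of all 3 were apart, at low to moderate levels. The central kinase gene CDKA;1 (Phvul.006G122800) was at 251, 253 and 300.2 and 182, 196 and 205 and was not called (-0.46 ± 0.26 (SE; adjusted p = 0.329)). Among 32 tubulin and kinesin genes, 1 was lower (3.12%), the kinesin KCBP (Phvul.003G279200, -1.33), and the abundant tubulin TUA2 (Phvul.009G114100) was not called (0.44 ± 0.36 (SE; adjusted p = 0.5)). Ribosomal protein genes had a median of -0.35 over 305 genes with 1 called each way. These were 0.328% each way, below the 1.72% of all genes called higher and 2.13% called lower. They were the plastid protein PSRP4 (Phvul.010G003200, -1.46) and an L18ae-type gene (Phvul.006G022666, 1.74). Of the 11 called genes of division and protein synthesis named above, 0 stayed called without c1 or 15 DAF replicate 1, 1 without replicate 2 or 3 and 2 without c3 (highest adjusted p 0.126, 0.136, 0.154, 0.137 and 0.134).

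Genes of photosynthesis were mostly not called, and the called antenna genes were all lower. Of 34 light-harvesting genes, which bind chlorophyll and pass light energy to the photosystems, 7 were lower and 0 higher, with a median of -1.01. The 7 were 20.6%, against 2.13% of all genes. All 7 were LHCB1-type genes with identifiers on 1 stretch of Phvul.004, so their reads may be shared. Phvul.004G093194 fell from 296, 89.6 and 239 to 5.85, 10.2 and 35.5 (-3.73 ± 0.66 (SE; adjusted p = 0.0249)), and LHCB1.3 Phvul.004G092376 from 284, 12.2 and 104 to 1.22, 0.74 and 1.5. In both c2 was the lowest 10 DAF library. The most abundant LHCB1 gene of the pods, Phvul.002G196400, was at 8319.6, 4183 and 13200.0 and 4581, 4706 and 4079, and its stages overlapped (-0.79 ± 0.56 (SE; adjusted p = 0.428)). LHCB2.1 (Phvul.008G285100) overlapped too (-1.17 ± 0.62 (SE; adjusted p = 0.291)), and the summed antenna level was 26195, 12291 and 39258 in c1, c2 and c3 and 13609, 14023 and 14013 at 15 DAF, with c2 below all 15 DAF libraries. Of 57 photosystem genes 1 was lower and 1 higher (1.75% each way, near the 2.13% and 1.72% of all genes). They were PSAK (Phvul.002G140800) and photosystem II reaction center protein C (Phvul.010G068100). The latter was at 0.352, 0.874 and 2.64 and then 5.04, 12.7 and 44.9, and replicate 3, with the low column sum, was again the highest by far (2.89 ± 0.65 (SE; adjusted p = 0.0442)). Abundant members such as PSAL (Phvul.008G054400, -0.95) and PSBR (Phvul.005G055200, -0.23) were not called. None of 11 carbon fixation genes was called at an adjusted p under 0.05 by limma (1 at an unadjusted p under 0.05; median 0.47), and aldolase FBA2 (Phvul.011G039100) and a Rubisco small chain gene (Phvul.004G064800) had differences of 0.59 ± 0.49 (SE; adjusted p = 0.511) and -0.09 ± 0.51 (SE; adjusted p = 0.939). Of the 5 called genes named here, counting LHCB1.4 Phvul.004G091988, 0 stayed called without 15 DAF replicate 1 or 2, 1 without c1 or c3 and 2 without replicate 3 (highest adjusted p 0.153, 0.139, 0.149, 0.137 and 0.0856). With c2 left out, 17 antenna genes were called lower, and the list's median was -1.48.

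A few lipid-transfer and water-channel genes were called lower at 15 DAF. Of 46 genes described as lipid-transfer or 2S albumin proteins, 5 were lower (10.9%, against 2.13% of all genes) and 0 higher (median -1.07). These are small secreted proteins that carry lipids to the surface or store nitrogen in seeds. LTP4 (Phvul.008G087000) fell from 2134, 1016 and 1329.8 to 493, 292 and 225 (-2.15 ± 0.41 (SE; adjusted p = 0.0295)). The member with the largest call, Phvul.008G113900, went from 459.9, 8.47 and 55.0 to 0.188, 1.71 and 0.494, and c1 alone held most of its 10 DAF signal. The most abundant, LTP3 (Phvul.010G069100), was at 11860.0, 4478 and 8596 and 4066, 4522 and 2992 and was not called (-1.02 ± 0.47 (SE; adjusted p = 0.237)). Ketoacyl-CoA synthases, which lengthen fatty acids for cuticular wax, had no call at an adjusted p under 0.05 in 12 genes by limma (4 at an unadjusted p under 0.05; median -0.45), CER6 (Phvul.007G027100) being the most abundant (-1.17 ± 0.42 (SE; adjusted p = 0.142)). Of 26 aquaporins, 3 plasma membrane types were lower (11.5%) and 0 higher (median -0.27). With columns rescaled to 1000000 TPM the counts were 2 and 2. PIP1;4 Phvul.002G290400 fell from 1243, 185 and 386 to 11.7, 14.5 and 40.6 (-4.47 ± 0.67 (SE; adjusted p = 0.016)), and PIP3 (Phvul.009G118900) from 779, 169.9 and 491 to 33.6, 34.2 and 63.4 (-3.24 ± 0.63 (SE; adjusted p = 0.0311)). The stages of both were apart in every library. The dominant copy of PIP1;4, Phvul.008G226000, was at 7215, 3149.7 and 5638 and 3572, 4590.4 and 2832, overlapping between the stages. Flavonoid genes were not called (12 tested by limma, 3 at an unadjusted p under 0.05, median -0.71), chalcone synthase (Phvul.001G083000) being at 590.0, 191 and 752 and 148, 83.9 and 145 (-1.84 ± 0.85 (SE; adjusted p = 0.232)). Of the 4 called genes named above, 0 stayed called without c3 or 15 DAF replicate 1 or 2 and 1 without c1 or replicate 3 (highest adjusted p 0.0981, 0.132, 0.119, 0.096 and 0.0939).

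Hormone genes changed in few members, and gibberellin genes most often. Of 13 gibberellin genes, 2 were higher and 4 lower (15.4% and 30.8%, against 1.72% and 2.13% of all genes). The 2 that rose were GA2OX1 copies, Phvul.005G061000, given above, and Phvul.005G061200, which went from 6.61, 21.1 and 38.9 to 118, 145 and 82.8 (2.59 ± 0.59 (SE; adjusted p = 0.0442)). The 4 that fell belong to the gibberellin-regulated GASA family of small secreted proteins. GASA4 (Phvul.009G187400) went from 113, 31.6 and 18.0 to 0.465, 0.981 and 2.3 (-4.28 ± 0.58 (SE; adjusted p = 0.0112)), and Phvul.001G025800 from 144, 35.9 and 33.6 to 4.52, 2.15 and 5.01. The most abundant GASA-family gene, Phvul.009G181500, was at 1367, 1545 and 1521 and 102, 256 and 1240.3. Replicate 3 was far above the other 15 DAF libraries and close to the 10 DAF level, and the gene was not called (-2.20 ± 0.73 (SE; adjusted p = 0.118)).

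Of 102 auxin genes, 5 were lower (4.9%, against 2.13% of all genes) and 0 higher (median -0.18). With the columns rescaled to 1000000 TPM the counts turned to 2 lower and 6 higher. IAA14 (Phvul.003G138330), a repressor in auxin signalling, fell from 88.5, 25.4 and 48.7 to 9.81, 3.88 and 10.6 (-2.53 ± 0.52 (SE; adjusted p = 0.0354)), and the response factor gene ARF10 (Phvul.011G080100) from 22.3, 18.2 and 19.3 to 9.31, 8.54 and 9.88 (-1.03 ± 0.18 (SE; adjusted p = 0.0252)). A SAUR gene (Phvul.011G038000), of a family induced early by auxin, fell from 148, 147 and 185 to 63.0, 80.8 and 60.7. The abundant Aux/IAA gene IAA17 (Phvul.005G173000) was not called (0.20 ± 0.26 (SE; adjusted p = 0.691)). Among 36 abscisic acid genes, 1 was higher and 1 lower (2.78% each way, against 1.72% and 2.13% of all genes). The response factor AREB1 (Phvul.003G291800) rose from 13.1, 14.6 and 10.8 to 32.3, 33.5 and 27.3. ABI5 (Phvul.007G229600), a seed-type factor, fell from 9.54, 3.69 and 8.26 to 0.135, 0.158 and 0.749 (-2.55 ± 0.35 (SE; adjusted p = 0.0117)). The carotenoid cleavage gene CCD4 (Phvul.002G120600) overlapped between the stages. The cytokinin response regulator ARR5 (Phvul.009G182800) was the 1 call of 24 cytokinin genes (4.17% lower), from 11.7, 12.1 and 8.63 to 3.4, 2.86 and 3.54. No ethylene gene was called by limma (2 of 15 at an unadjusted p under 0.05); an EIN3 copy (Phvul.008G207000), the master regulator of the ethylene response, was at 53.8, 99.8 and 53.4 and 188, 162 and 123 with an adjusted p of 0.0505, and another (Phvul.006G011200) did not separate the stages.

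Lipoxygenases moved both ways within LOX1-type copies. Of 14, 3 were lower and 2 higher (21.4% and 14.3%, against 2.13% and 1.72% of all genes). Beside Phvul.010G134900 and Phvul.005G156800, Phvul.005G156900 fell from 787, 205 and 482 to 18.3, 101 and 32.9 (-3.40 ± 0.68 (SE; adjusted p = 0.0339)). The neighbours by identifier Phvul.010G135800 and Phvul.010G135900 rose, from 16.1, 8.27 and 9.19 to 35.5, 30.7 and 32.9 and from 2.58, 3.94 and 2.94 to 15.7, 10.7 and 10.6. The summed lipoxygenase level was 1644, 425 and 1173 in c1, c2 and c3 and 246, 273 and 188 at 15 DAF, and the copies that fell carried most of it at 10 DAF but not at 15 DAF. In jasmonate synthesis, which starts from lipoxygenase products, 1 of 27 genes was called higher (3.7%, against 1.72% of all genes). OPR1 (Phvul.001G000800) rose from 15.2, 20.5 and 27.4 to 65.7, 69.2 and 45.1, while allene oxide synthase (Phvul.011G049600) was not called (-0.70 ± 0.42 (SE; adjusted p = 0.355)). Of the 15 called hormone and lipoxygenase genes named above, leaving aside Phvul.005G156800, 1 stayed called without 15 DAF replicate 1 or 2, 5 without c1 and 6 without c3 or replicate 3 (highest adjusted p 0.142, 0.156, 0.109, 0.114 and 0.101). On the values as deposited, where the median gene differed by -0.18, 6 of them were not called, the highest adjusted p being 0.234 for AREB1.

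**Figure D4:**
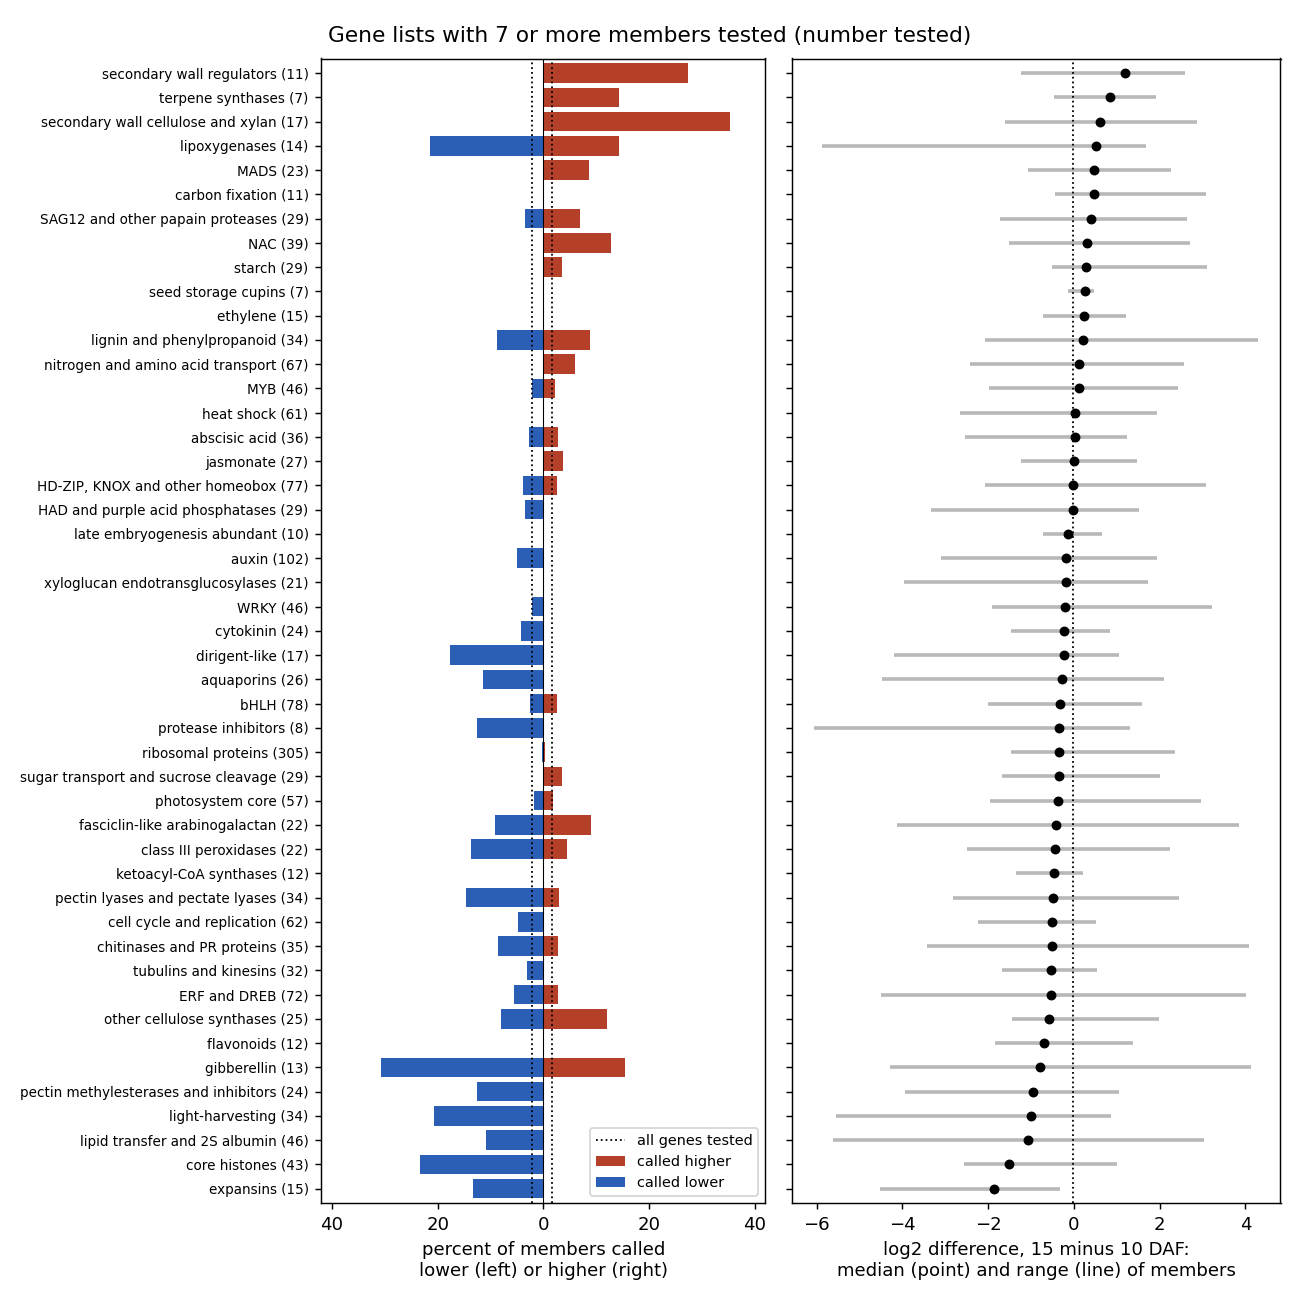
Gene lists with 7 or more members tested, ordered by median. Bars give the percent of tested members called higher (red, to the right) or lower (blue, to the left) at 15 DAF; points and grey lines give the median and range of log2 differences, and dotted lines mark all genes tested (1.72%, 2.13% and a median of -0.03). Secondary wall regulators, terpene synthases and secondary wall cellulose and xylan are at the top, and core histones and expansins at the bottom.

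Among transcription factors, NAC genes had 5 higher and 0 lower of 39 (12.8% higher, against 1.72% of all genes). Besides the SND2 copies they were ANAC087 (Phvul.001G100500), linked with programmed cell death in Arabidopsis roots, VNI2 (Phvul.008G001000), a regulator of xylem vessels and senescence there, and ANAC100 (Phvul.009G186000). VNI2 went from 43.5, 53.0 and 46.7 to 197, 183 and 142 (1.84 ± 0.30 (SE; adjusted p = 0.0209)), and ANAC100 from 15.4, 14.6 and 24.1 to 70.4, 61.8 and 79.5 (1.94 ± 0.33 (SE; adjusted p = 0.0233)). ANAC087 went from 1.95, 1.08 and 1.43 to 18.2, 25.4 and 7.4. The stages were apart in all 3 genes, and the more abundant ATAF1 (Phvul.009G125900) was not called (0.25 ± 0.34 (SE; adjusted p = 0.703)). MADS genes, which set organ identity, had 2 higher and 0 lower of 23 (8.7% higher, against 1.72% of all genes). SHP1 (Phvul.006G034400), which in Arabidopsis shapes the zone where the fruit opens, rose from 74.6, 46.1 and 34.5 to 141, 229 and 126 (1.68 ± 0.39 (SE; adjusted p = 0.049)), and AP1 (Phvul.003G182700) from 33.9, 24.4 and 5.92 to 77.5, 104 and 83.2 (2.27 ± 0.51 (SE; adjusted p = 0.0442)). Both were near the threshold. The carpel identity gene AG (Phvul.006G169600) was at 115, 239.5 and 143 and 361, 340.1 and 263 and missed it (1.01 ± 0.30 (SE; adjusted p = 0.0878)).

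AP2/ERF factors had 2 higher and 4 lower of 72 (2.78% and 5.56%, against 1.72% and 2.13% of all genes). The second that rose, Phvul.001G084000, went from 0.582, 0.258 and 0 to 24.0, 14.5 and 2.9. TINY2 (Phvul.001G073800), of a group of stress response regulators, fell from 74.2, 11.9 and 94.2 to 0.347, 0.812 and 2.33 (-4.49 ± 0.69 (SE; adjusted p = 0.0168)), ERF3 (Phvul.001G157600) from 16.7, 20.4 and 42.2 to 1.43, 0.818 and 4.97, and ERF12 (Phvul.006G183200) from 19.5, 18.2 and 25.9 to 1.53, 3.71 and 2.17. Homeobox genes had 2 higher and 3 lower of 77 (2.6% and 3.9%, against 1.72% and 2.13% of all genes). HB40 and the BEL1-type gene BLH4 (Phvul.002G024800, 2.21, 14.2 and 6.06 and then 35.9, 32.0 and 32.7) rose, and HB13 (Phvul.002G088600) fell from 29.2, 18.5 and 12.3 to 6.82, 3.11 and 4.27. WOX4 (Phvul.009G066960), which keeps the cambium dividing in Arabidopsis, fell from 4.3, 1.74 and 3.1 to 0.362, 0.212 and 0.286 (-1.60 ± 0.28 (SE; adjusted p = 0.0249)). It was the lowest in level of these, and the most abundant homeobox gene, HB1 (Phvul.003G192900), was not called (1.11 ± 0.41 (SE; adjusted p = 0.147)). MYB26 (Phvul.005G157600), which in Arabidopsis drives wall thickening in the anther, fell from 19.0, 19.1 and 10.2 to 2.47, 4.0 and 3.19 (-1.99 ± 0.32 (SE; adjusted p = 0.0187)). WRKY48 (Phvul.006G119100) was the 1 WRKY gene called of 46 (2.17%), with a log2 difference of -1.72 ± 0.21 (SE; adjusted p = 0.0112). The bHLH genes had 2 each way of 78 (2.56%, near the share of all genes), among them a rise of Phvul.006G198400 (1.59). Of the 17 called factors named above, 1 stayed called without 15 DAF replicate 1 or 2, 2 without c1, 6 without c3 and 9 without replicate 3 (highest adjusted p 0.136, 0.17, 0.0952, 0.138 and 0.104). SHP1 was not called under 12 of the other settings, among them the values as deposited (adjusted p = 0.108) and any 1 library left out.

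Transport and storage genes changed in few members. Of 67 nitrogen and amino acid transport genes, 4 were higher and 0 lower (5.97%, against 1.72% of all genes; 2 higher and 1 lower on the values as deposited). They were 2 UPS2-type ureide permeases, which move the ureides that bean roots send to the shoot, the amino acid carrier CAT5 and the nitrate transporter NRT1.7. The permease Phvul.003G042800 rose from 12.3, 17.6 and 18.5 to 51.3, 47.1 and 33.1 (1.38 ± 0.28 (SE; adjusted p = 0.0335)), and Phvul.010G069400 from 2.9, 4.57 and 6.26 to 19.3, 12.7 and 11.8 (adjusted p = 0.027). CAT5 (Phvul.009G243100) rose by 2.56 and NRT1.7 (Phvul.003G070500) by 1.79. Glutamine synthetase GLN1;1 (Phvul.004G148300) was at 233, 249 and 192 and 400.4, 485 and 312, without overlap and without a call (0.81 ± 0.25 (SE; adjusted p = 0.0949)). The sugar carrier STP1 (Phvul.003G036800) rose from 7.39, 9.56 and 8.9 to 52.3, 42.6 and 23.8 (2.01 ± 0.42 (SE; adjusted p = 0.0373)), the 1 call among 29 genes of sugar transport and sucrose cleavage (3.45%; median -0.36). On the values as deposited that list had 0 higher and 1 lower. The abundant sucrose synthase SUS4 (Phvul.003G127500) was at 1579, 903 and 1325 and 335, 607 and 568, lower without overlap but not called (-1.34 ± 0.37 (SE; adjusted p = 0.0717)). For starch, 1 of 29 genes was called higher (3.45%, against 1.72% of all genes). The alpha-amylase AMY1 (Phvul.010G017600) rose from 0.571, 0.416 and 0.406 to 24.9, 16.2 and 3.4, and 15 DAF replicate 3 was the lowest of its stage. Beta-amylase 5 (Phvul.011G107700) overlapped between the stages.

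Proteases and defence genes showed no common direction. Of 29 papain-type proteases, which break down proteins in ageing tissue among other roles, 2 were higher and 1 lower. These were 6.9% and 3.45%, against 1.72% and 2.13% of all genes. Phvul.009G170800 rose from 31.8, 37.8 and 54.6 to 503, 232 and 143 (2.64 ± 0.61 (SE; adjusted p = 0.0465)), and the abundant RD19 (Phvul.001G009900) was not called (0.58 ± 0.40 (SE; adjusted p = 0.417)). Chitinases and pathogenesis-related proteins had 1 higher and 3 lower of 35 (2.86% and 8.57%). The chitinase-like gene CTL2 (Phvul.009G254400) rose from 149.8, 288 and 287 to 854, 966 and 527, a thaumatin-type gene (Phvul.011G034200) fell from 59.7, 24.7 and 22.9 to 1.26, 1.35 and 4.56 (-3.44 ± 0.52 (SE; adjusted p = 0.0161)), and CTL1 (Phvul.008G018100), which supports cellulose synthesis in Arabidopsis, was not called (-1.23 ± 0.49 (SE; adjusted p = 0.178)). The terpene synthase TPS-CIN (Phvul.005G135000), whose Arabidopsis relative makes cineole, rose from 35.8, 61.5 and 71.3 to 278, 199 and 158 (1.91 ± 0.40 (SE; adjusted p = 0.0373)), while TPS14 (Phvul.006G195700) did not separate the stages. An acid phosphatase gene (Phvul.010G144300) was among the most variable at 15 DAF, at 149, 2527 and 329 against 2251, 709.6 and 2045 at 10 DAF, and was not called. Of the 11 called genes named above, with the Kunitz inhibitor, 0 stayed called without 15 DAF replicate 1 or 2, 1 without c1, 2 without c3 and 4 without replicate 3 (highest adjusted p 0.153, 0.153, 0.142, 0.122 and 0.0697), and 6 did on the values as deposited (highest 0.179).

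The change in pods was set against that in grain over the same days. Of the 299 genes that rose in pods, 84 were also called higher in grain (28.1% of them and 8.96% of the grain list), where 5.4% of all genes were, and 4 were called lower. Of the 369 that fell, 96 were also called lower in grain (26.0%, and 6.69% of the grain list), where 8.27% of all genes were, and 14 were called higher. The grain calls came from a fit whose estimate of the spread includes the same pod libraries. The calls in the tissues are thus not independent, and no conclusion is drawn from the shared shares. The difference between the tissues was tested as an interaction over 12 libraries, which called 1369 genes (7.9%), 675 with a positive difference, pod change minus grain change (3.89%), and 694 with a negative one (4.0%). Among the genes that rose in pods 104 were called in the same direction, and among those that fell 134; this test shares its pod libraries with the comparison of pods, so these shares were not read against the background.

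Expansin EXPA1 and the aluminium-induced gene were called in the same direction in both tissues: EXPA1 differed by -2.85 in grain and -4.52 in pods, and the aluminium-induced gene by 2.66 and 3.03. Their interactions were not called (-1.64 ± 0.82 (SE; adjusted p = 0.241) and 0.37 ± 0.65 (SE; adjusted p = 0.772)). The LAC4 gene Phvul.008G107100 differed by -0.07 in grain against 4.30 in pods, an interaction of 4.22 ± 0.46 (SE; adjusted p = 0.000867). SND2 Phvul.005G100100 (2.90 ± 0.43 (SE; adjusted p = 0.00403)), GUX1 (2.81 ± 0.36 (SE; adjusted p = 0.00211)) and GAUT12 Phvul.005G091200 (3.32 ± 0.33 (SE; adjusted p = 0.000738)) also differed, whereas CESA4, CESA7 and CESA8 did not pass that test. Opposite directions in the tissues were called for the Kunitz inhibitor Phvul.004G129600, which differed by 3.72 in grain (-9.61 ± 1.05 (SE; adjusted p = 0.000867)), and for an oleosin gene (Phvul.008G144500), a coat protein of oil bodies. The oleosin gene fell in pods from 40.5, 16.4 and 33.9 to 2.37, 4.56 and 4.8 (-2.62 ± 0.36 (SE; adjusted p = 0.012)) and differed by 3.88 in grain (-6.45 ± 0.55 (SE; adjusted p = 0.000307)). Leaving out 1 of the 12 libraries gave between 730 calls (without grain 15 DAF replicate 1) and 2127 (without pod c2). The interaction used 1 estimate of the spread over both tissues. A gene with little spread in grain can thus have too small an SE and adjusted p. The SE of GUX1 was 0.36 there, against 0.47 in the fit of pods alone.

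**Figure D5:**
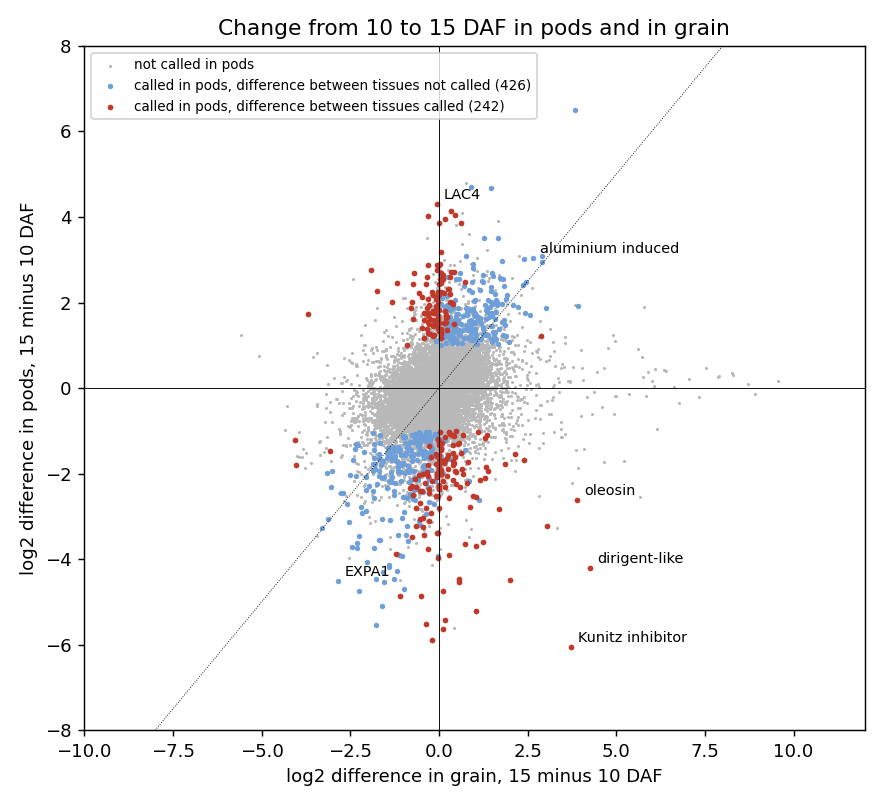
Log2 difference between 15 and 10 DAF in pods (vertical axis) against that in grain (horizontal axis), 1 point for each of 17336 genes. Blue and red points are the 668 genes called in pods, red where the difference between the tissues was also called (242); the dotted line marks equal change. LAC4 lies near 0 on the grain axis, and the Kunitz inhibitor, dirigent-like and oleosin genes lie to the right of 0 and below it.

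By 20 DAF, pod levels of the genes above had gone different ways; these values are given without a test, since the same 15 DAF libraries enter both differences. In pods at 20 DAF replicates 1, 2 and 3, LAC4 Phvul.008G107100 was at 45.4, 35.2 and 57.6 and CYP93D1 at 742, 431 and 516, above their 15 DAF means. FLA11 Phvul.006G172100 was at 0.0827, 0.221 and 4.89, GUX1 at 0.135, 1.44 and 3.36 and SHP1 at 45.9, 18.2 and 30.4, at or near their 10 DAF levels in at least 2 of the 3 libraries. CESA7 was at 62.2, 17.4 and 44.5, between the 2 earlier stages in replicate 2 and near the 15 DAF level in the others. Of the genes that fell, 3 were below their 15 DAF means. EXPA1 was at 3.02, 1.03 and 9.04, LOX1 Phvul.010G134900 at 0.617, 0.919 and 2.71 and the DUF642 gene at 2.03, 3.55 and 7.85. Expansins summed over the list were higher than at 15 DAF, at 1125, 638 and 1301 against 321, 624 and 623. The SAUR gene Phvul.011G038000, at 205, 147 and 169, was at or above its 10 DAF levels.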

How the data were processed

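RNA-seq of pods and grain of the line 4004 was used as a table of TPM values that the authors deposited, with 1 column per library; for the aligner, genome build and counting, the sources used here give nothing. Depth is unknown, since TPM values do not keep it. Columns were divided by median-ratio factors, computed over 14394 genes above 1 TPM in all 9 pod libraries, and genes with at least 1 TPM in 3 or more of the 6 pod libraries at 10 and 15 DAF were tested. With limma 3.58.1 in R 4.3.3, log2(scaled TPM + 1) of the 9 pod libraries was fitted with 3 group means and an intensity trend, with Benjamini-Hochberg adjustment over all genes tested. The difference between pods and grain was an interaction over 12 libraries with a scaling of their own. Grain calls came from the same fit, which used 1 estimate of the spread over both tissues. The test was run on simulated data first. Genes named by rule were the 12 largest called differences each way with a description and at least 20 scaled TPM, and for each list its largest called members and its 2 most abundant ones. Members and lists were chosen with earlier results of these data known, and further called members and the 12 genes called under all settings were named after their values were seen. Gene names come from descriptions in the deposited table, which follow Arabidopsis relatives.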

Additional observations from a re-analysis of the deposited data

Results flagged for a closer look

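For 60 genes named in the text, the change from 10 to 15 DAF differed between pods and grain by the interaction test in limma (adjusted p under 0.05 and at least 1 on the log2 scale). Values below are the pod change minus the grain change on the log2 scale. They were noticed among many genes, and no explanation was tested. Most of them were named because they were called in pods, and the test shares its pod libraries with that call. The count of 60 is thus not read against the 7.9% of all genes that the test called. The grain change was 0 for FLA11 (Phvul.006G172100), LAC4 (Phvul.008G226700), MYB52 and CCoAOMT1, whose values restate the pod change. The test pools the spread of both tissues, so its adjusted p can be too low for a gene with little spread in grain.

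Among the core genes and the largest rises, the difference was 4.22 for LAC4 (Phvul.008G107100), 4.17 for the AP2-type gene (Phvul.002G281300) and 3.22 for the PEBP gene (Phvul.004G119700). It was 3.73 for GA2OX1 (Phvul.005G061000), 3.69 for FLA11 (Phvul.006G172100), 3.65 for the ribonuclease T2 gene (Phvul.002G084500) and 1.89 for the PhzC/PhzF gene (Phvul.007G170400). The undescribed Phvul.011G114200 differed by -1.46. The widest gap of all 60 was -9.61 for the Kunitz inhibitor (Phvul.004G129600), whose pod and grain changes were -6.05 and 3.72. The dirigent-like genes Phvul.005G032600 and Phvul.005G032500 differed by -8.23 and -6.06, LOX1 (Phvul.010G134900) by -5.62, the DUF642 gene (Phvul.001G053100) by -3.73, AGP18 (Phvul.002G014100) by -4.31 and the lectin kinase (Phvul.007G239800) by -4.98.

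Among genes of the secondary wall, the difference was 3.32 and 2.65 for GAUT12 (Phvul.005G091200, Phvul.011G141200), 2.90 for SND2 (Phvul.005G100100), 2.81 for GUX1 (Phvul.009G148800), 2.81 for LAC4 (Phvul.008G226700), 2.26 for MYB52 (Phvul.009G133700), 2.09 for COBL4 (Phvul.008G029000) and 1.61 for the CSLB-type gene (Phvul.011G101500). Other wall genes differed both ways, by 2.79 for the pectin lyase gene (Phvul.009G225400), -4.44 for the pectate lyase gene (Phvul.001G256900), 2.44 and -1.75 for peroxidases (Phvul.008G249500, Phvul.002G012300) and -2.83 for FLA2 (Phvul.008G288800). LAC17 (Phvul.008G100400), LAC5 (Phvul.008G220300) and CCoAOMT1 (Phvul.003G242451) differed by -1.22, -1.86 and -1.60.

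Lipid-transfer genes differed by -6.10 (Phvul.008G113900), -5.03 (Phvul.001G050300) and -3.30 (LTP4, Phvul.008G087000), and CER6 (Phvul.007G027100) by -2.01. LOX1 copies differed by -4.80 (Phvul.005G156800), -3.34 (Phvul.005G156900), 1.37 (Phvul.010G135800) and 1.66 (Phvul.010G135900). Among hormone genes, the values were -4.79 for the GASA-family gene (Phvul.001G025800), -3.43 for ABI5 (Phvul.007G229600), -2.47 for IAA14 (Phvul.003G138330) and -1.29 for ARF10 (Phvul.011G080100).

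Among transcription factors, TINY2 (Phvul.001G073800) differed by -6.35, HB13 (Phvul.002G088600) by -3.14, WRKY48 (Phvul.006G119100) by -2.45, MYB26 (Phvul.005G157600) by -1.88 and WOX4 (Phvul.009G066960) by -1.26, while Phvul.001G084000, ANAC087 (Phvul.001G100500) and the bHLH gene (Phvul.006G198400) differed by 2.95, 2.20 and 1.59. The remaining values were 3.05 for aldolase FBA2 (Phvul.011G039100), 1.62 for TUA2 (Phvul.009G114100), 1.98 for TPS-CIN (Phvul.005G135000), 1.52 for UPS2 (Phvul.010G069400), -1.40 for CYCD1;1 (Phvul.003G054801), -2.37 for SUS4 (Phvul.003G127500) and -2.91 for the thaumatin-type gene (Phvul.011G034200). Of seed genes, the oleosin gene (Phvul.008G144500) differed by -6.45 and the cupin CRU1 (Phvul.007G192800), which was not called in pods, by -7.08.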

How the results depend on the processing

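The 668 calls in pods became 413 with a pseudocount of 0.1 TPM, 293 without the filter on low values, 1449 with all 18 libraries fitted and 1354 at an adjusted p under 0.1. The 299 higher calls became 171 on the values as deposited, 578 with columns rescaled to 1000000 TPM, 135 without the filter, 600 with all 18 libraries and 561 at an adjusted p under 0.1. The 369 lower calls became 612 as deposited, 203 with the smaller pseudocount, 158 without the filter, 849 with all 18 libraries and 793 at the wider threshold. The 134 called list members became 210 as deposited, 87 with the smaller pseudocount, 70 without the filter, 286 with all 18 libraries and 277 at the wider threshold. Leaving out 1 library gave 15 to 1615 calls, 7 to 595 higher, 6 to 1020 lower and 4 to 285 list members, the lowest without 15 DAF replicate 1 or 2 and the highest without c2. The 1369 genes that differed between pods and grain became 7291 with columns rescaled and 905 with the filter at 5 TPM, and 730 to 2127 with 1 library left out. No named gene changed direction while called. The cause of these shifts was not tested. No paired analysis was possible because the 10 DAF pod columns are numbered 1 to 3 but their sample titles 3 to 5, so the columns match no single sample, and the titles at 10 and 15 DAF share only 1 number. TPM gives no depth, so counting error is unknown.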
